A study of Mus musculus with 4 samples.

Results

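The genes that give a retinal neuron its transmitter identity were followed in 4 RNA-seq libraries of sorted mouse retinal cells. They are the 9 genes Gad1, Gad2, Slc32a1, Slc6a9, Chat, Th, Slc17a6, Slc17a7 and Slc17a8, picked by symbol for GABA, glycine, acetylcholine, dopamine and glutamate. All 9 were found, among 21827 genes analysed. The retinas came from pHes1-EGFP mice, which the labels give as strain FVB/N and which carry destabilized EGFP under a 2.5-kb Hes1 promoter, so every group, the EGFP-negative cells included, carried the transgene. Cells were sorted at postnatal day 1 (P1) or 4 (P4) into EGFP-positive cells (pHes1_EPCs) and EGFP-negative cells (pHes1_ENCs), and each of the 4 groups is 1 library. Hes1 is expressed by retinal progenitors as well as by Müller glia, and a reporter under its promoter can mark both. How many animals were pooled for a sort is not given in the sources used here.

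In a neuron, the transmitter is set by the enzyme that makes it and by the vesicular transporter that loads it into synaptic vesicles. In the retina, photoreceptors, bipolar cells and ganglion cells release glutamate, while most amacrine cells release GABA or glycine and small amacrine subsets add acetylcholine or dopamine. Müller glia and progenitors are not transmitter-releasing neurons, but glia take up and break down the transmitters that neurons release.

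Levels are given in FPKM (fragments per kilobase of transcript scaled to the mapped fragments of the library), which is divided by transcript length, so levels of different genes can be compared. The interval after a level is the 95% interval that Cufflinks gave for that library. It covers counting and read assignment in 1 library and not the spread between animals or sorts. Since each group is 1 library, the groups could not be tested against each other. A difference is that of log2(FPKM + 1), and a gene was called higher or lower when the difference exceeded 1, which is 2-fold on this scale. The pseudocount makes this scale understate the change of low genes. A gene below 1 FPKM in all 4 libraries cannot be called, and 12940 of the 21827 genes were not below it. Of the 9 transmitter genes, 5 belong to these (Gad1, Gad2, Slc32a1, Slc6a9 and Slc17a7), and the other 4 (Chat, Th, Slc17a6 and Slc17a8) do not.

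FPKM sums ran from 277421 in P1 pHes1_ENCs to 371999 in P4 pHes1_EPCs, and each library had 11457 to 12107 genes at 1 FPKM or more. FPKM is already scaled to library size, so these sums do not measure depth. The worth of 1 read, taken from the widths of the intervals, differed between the libraries by at most 1.08 times. The summed markers of Müller glia and of progenitors were both greater in pHes1_EPCs than in pHes1_ENCs. The 12 Müller markers summed to 1275 FPKM (P1) and 2682 FPKM (P4) in pHes1_EPCs, against 420 and 316 in pHes1_ENCs. The 12 progenitor markers summed to 3037 and 1746 in pHes1_EPCs, against 657 and 184. With each gene called by itself, 8 (P1) and 9 (P4) of the 12 Müller markers were higher in pHes1_EPCs. Clu was lower at P1 (-1.12), and Aqp4 and Abca8a stayed below 1 FPKM throughout. Dkk3 alone supplied 477 of the 1275 FPKM, and Apoe 838 of the 2682. Of the progenitor markers, 11 (P1) and 12 (P4) were higher, and Ccnd1 supplied 1406 of the 3037 FPKM. Hes1 is on that list and its promoter drives the reporter, so the list is not independent of the sort. The 6 red blood cell markers summed to 214 and 514 in pHes1_ENCs and to 0.857 and 8.69 in pHes1_EPCs. The 8 microglia markers summed to no more than 15.0 in any library.

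The 200 bases upstream of the start of each of the 5 callable genes are shown because these genes carry the differences described below, and the windows let their start regions be set side by side. They are read from mm9 and given 5′ to 3′ on the strand of the gene. The start is the most 5′ of the start of the gene line in the files and the starts of annotated coding transcripts within 1000 bases of it. The windows are chr2:70399899-70400098 for Gad1, chr2:22477525-22477724 for Gad2, chr2:158436294-158436493 for Slc32a1, chr4:117506911-117507110 for Slc6a9 and chr7:52419091-52419290 for Slc17a7, all on the plus strand. Capitals mark matches, on either strand, to one of 3 motifs that were searched. These are the E-box CAGCTG (bound by basic helix-loop-helix activators), TAATCC (bound by the photoreceptor factors Crx and Otx2) and the N-box CACNAG (bound by Hes repressors).
Gad1: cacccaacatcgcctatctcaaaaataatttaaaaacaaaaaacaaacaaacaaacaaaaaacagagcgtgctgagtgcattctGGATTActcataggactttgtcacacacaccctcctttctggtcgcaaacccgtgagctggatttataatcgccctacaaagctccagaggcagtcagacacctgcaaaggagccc
Gad2: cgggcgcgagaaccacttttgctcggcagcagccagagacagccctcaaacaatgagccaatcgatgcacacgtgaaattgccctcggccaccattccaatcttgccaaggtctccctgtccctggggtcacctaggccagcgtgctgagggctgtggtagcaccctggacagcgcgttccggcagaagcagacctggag
Slc32a1: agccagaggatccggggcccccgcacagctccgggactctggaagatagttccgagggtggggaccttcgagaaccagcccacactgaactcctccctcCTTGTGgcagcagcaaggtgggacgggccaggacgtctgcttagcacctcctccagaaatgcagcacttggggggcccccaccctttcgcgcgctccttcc
Slc6a9: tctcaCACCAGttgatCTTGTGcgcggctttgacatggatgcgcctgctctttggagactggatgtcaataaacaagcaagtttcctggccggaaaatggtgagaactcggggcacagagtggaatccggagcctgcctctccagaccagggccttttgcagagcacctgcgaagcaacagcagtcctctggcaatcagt
Slc17a7: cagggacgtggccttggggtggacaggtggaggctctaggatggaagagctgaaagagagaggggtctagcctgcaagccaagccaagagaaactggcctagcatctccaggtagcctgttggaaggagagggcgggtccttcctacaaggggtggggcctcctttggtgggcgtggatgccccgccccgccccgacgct

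The Gad1 window held 1 TAATCC match, which begins 116 bases upstream of the start. In Slc32a1 there was 1 N-box match, 101 bases upstream, and Slc6a9 had 2, at 195 and 184 bases. No match to any of the 3 motifs lay in the windows of Gad2 or Slc17a7. Among 20055 windows of the same length, 9.73% held CAGCTG, 5.04% held TAATCC and 29.3% held CACNAG, so an N-box match is common. The windows of Slc32a1, Slc17a7 and Gad2 had a GC content of 65.0%, 63.5% and 61.0%, those of Slc6a9 and Gad1 had 54.5% and 44.0%, and the median of all windows was 56.5%. The Gad1 window lies in an intron of a longer Gad1 transcript and of 1500002O10Rik on the opposite strand, and the Slc32a1 window overlaps an exon of the antisense gene Gm14204. A match is a run of letters and not a shown site of binding.

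At P1, 5 of the 9 transmitter genes were lower in pHes1_EPCs than in pHes1_ENCs. They were Gad1, Gad2, Slc32a1, Slc6a9 and Slc17a7, the genes for GABA, glycine and glutamate. In the background 11.5% of genes were lower and 10.3% higher, and 0 of the 9 transmitter genes were higher. The median log2 difference of the 9 genes was -1.90, and that of the background was 0.02. At P4, 3 of the 9 were lower (Slc32a1, Slc6a9 and Slc17a7), against 9.15% of the background, and 0 were higher, against 16.6%. The median of the 9 genes was -0.20 at P4, the value of Th, and that of the background was 0.15. The 9 include Chat, Th, Slc17a6 and Slc17a8, which cannot be called, and the background leaves such genes out. Of the 5 callable genes, 5 were lower at P1 and 3 at P4. However, Gad1 and Slc32a1 reached 1 FPKM only in pHes1_ENC libraries. Between the fractions they could only be called lower, so their part in these counts is set by the limit. In bulk libraries, fewer cells of a type and less RNA of a gene in each cell cannot be told apart.

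Between the ages, genes were called in both directions. In pHes1_ENCs 3 of the 9 were lower at P4 than at P1 (Gad1, Gad2 and Slc32a1), against 10.0% of the background, and 2 were higher (Slc6a9 and Slc17a7), against 4.67%. In pHes1_EPCs Slc6a9 and Slc17a7 again were higher at P4, 2 of 9 against 7.04% of the background, and 0 were lower, against 4.33%. The median log2 difference between the ages of the 9 genes was -0.32 in pHes1_ENCs and 0.00 in pHes1_EPCs, where the background medians were -0.01 and 0.17. The medians of the 9 are the values of Chat and Th, which cannot be called and which the background leaves out. Of the 5 callable genes, 3 were lower and 2 higher with age in pHes1_ENCs, and 2 were higher in pHes1_EPCs. Gad1 and Slc32a1 stayed below 1 FPKM in both pHes1_EPC libraries and could not be called between the ages there. Comparisons of the fractions and of the ages share libraries and are not independent of each other.

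**Figure D1:**
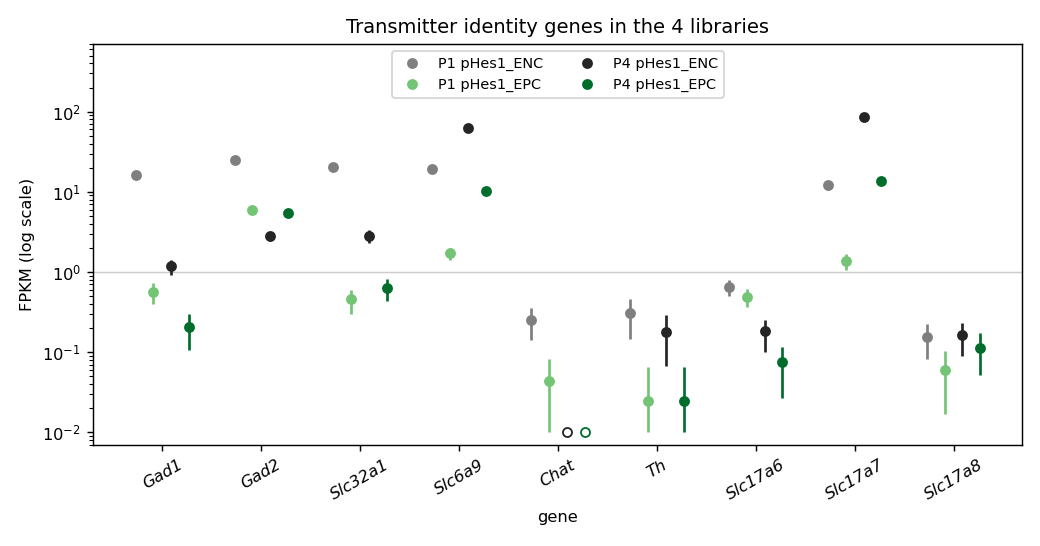
FPKM (log scale) of the 9 transmitter genes in the 4 libraries. Points are single libraries, vertical lines their Cufflinks 95% intervals (cut at the lower edge where they reach 0), and open circles at the lower edge stand for a gene listed at 0. Gad1, Gad2, Slc32a1, Slc6a9 and Slc17a7 rise above 1 FPKM (grey line), whereas the points of Chat, Th, Slc17a6 and Slc17a8 all lie below it.

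**Figure D2:**
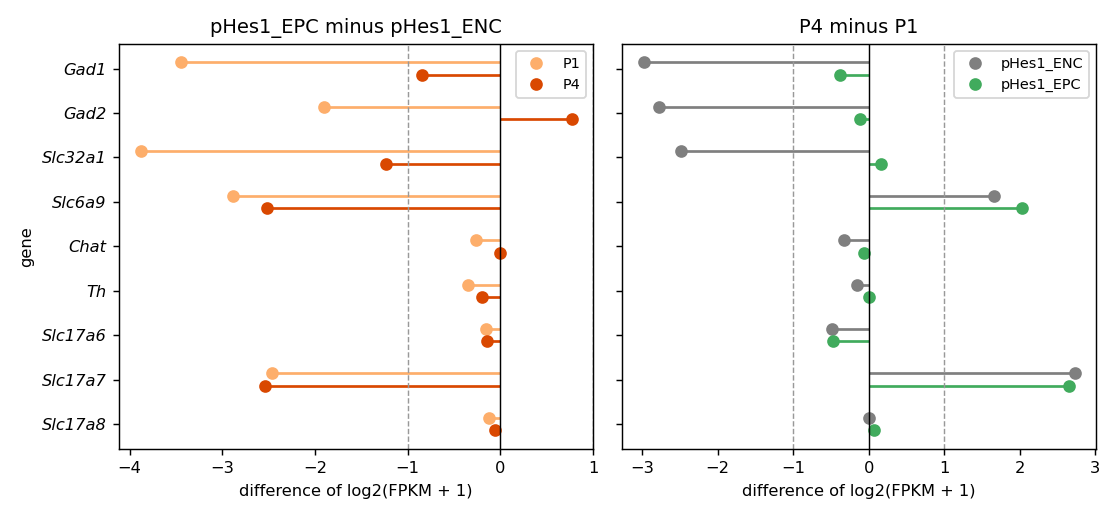
Difference of log2(FPKM + 1) for each gene between the fractions (left, P1 and P4) and between the ages (right, pHes1_ENCs and pHes1_EPCs), with 1 library behind each level. Dashed lines mark the 2-fold limit, and the bars of Gad2 on the left point in opposite directions at P1 (-1.90) and P4 (0.77).

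GABA is made from glutamate by 2 glutamate decarboxylases, GAD67 and GAD65, which Gad1 and Gad2 encode. Gad1 lies on the plus strand of chromosome 2 (mm9, chr2:70400221-70440069), and its longest coding transcript has 17 exons. In P1 pHes1_ENCs its FPKM was 16.2 (14.5 to 16.8), against 0.566 (0.401 to 0.732) in P1 pHes1_EPCs. At P4 the 2 fractions had 1.17 (0.912 to 1.42) and 0.203 (0.107 to 0.298). One library thus stood apart, and the other 3 were at about 1 FPKM or below. The log2 difference between the fractions was -3.45 at P1, where the FPKM of pHes1_ENCs was 28.5 times that of pHes1_EPCs (19.8 to 42.0 from the intervals). At P4 the ratio was 5.74 (3.06 to 13.3) and the intervals did not overlap, but at these low levels the log2 difference was -0.85, within the 2-fold limit. Gad1 fell by 2.98 on the log2 scale from P1 to P4 in pHes1_ENCs. In pHes1_EPCs the corresponding difference was -0.38.

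Reads of 36 bases can be shared between near copies. Of the 3320 words of that length in the Gad1 transcript, 244 (7.35%) occur elsewhere in mm9, all of them in Gad1-ps at chr10:98906655-98909479, which has no line of its own in the files. How much of the Gad1 level comes from such reads was not tested.

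Gad2 (chr2:22477847-22549397, plus strand, 16 exons) had the smallest ratio of its highest to its lowest FPKM among the 3 GABA genes. P1 pHes1_ENCs had an FPKM of 25 (23.5 to 25.5) and P1 pHes1_EPCs one of 5.96 (5.44 to 6.49). At P4, pHes1_ENCs had 2.78 (2.46 to 3.11) and pHes1_EPCs 5.43 (4.94 to 5.89). P1 pHes1_ENCs were again the highest library, but at P4 the order of the fractions was turned. The log2 difference was -1.90 at P1, with an FPKM ratio of 4.19 (3.62 to 4.70) in favour of pHes1_ENCs. At P4 it was 0.77, within the 2-fold limit, and the ratio of 1.95 (1.59 to 2.39) was in favour of pHes1_EPCs, with intervals that did not overlap. Gad2 fell by 2.78 in pHes1_ENCs between the ages, while in pHes1_EPCs the difference was -0.11 and the intervals of both ages overlapped. Of its 5709 words of 36 bases, 145 (2.54%) occur elsewhere in the genome, 114 of them at more than 50 places.

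The make-up of the decarboxylase pair differed between the fractions. Gad2 supplied 60.7% of the summed FPKM of both genes in P1 pHes1_ENCs and 70.5% in P4 pHes1_ENCs. In pHes1_EPCs it supplied 91.3% at P1 and 96.4% at P4. The sums behind these shares were 41.2 and 3.95 FPKM in pHes1_ENCs, and 6.53 and 5.64 in pHes1_EPCs.

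**Figure D3:**
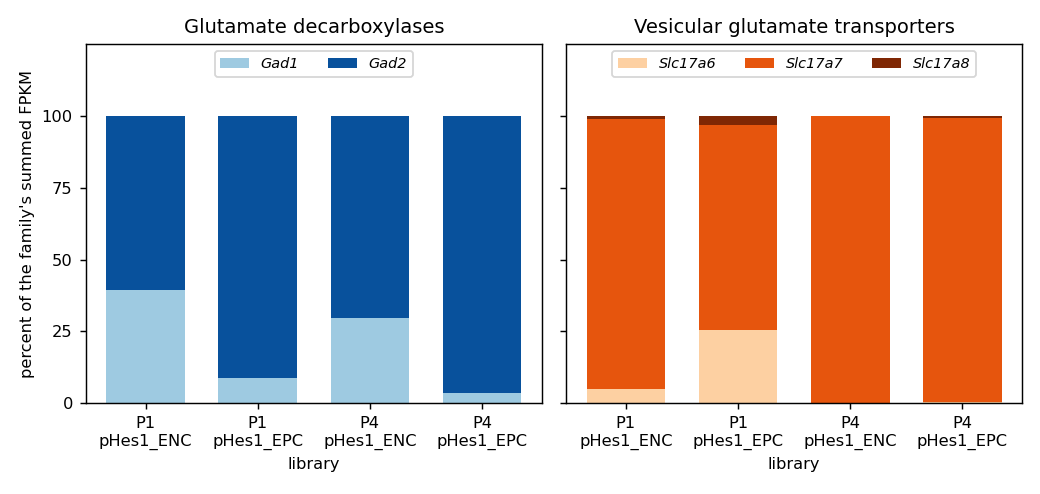
Share (percent) of each gene in the summed FPKM of the glutamate decarboxylases (left) and of the vesicular glutamate transporters (right) in each library. Gad2 supplies over 91% of the decarboxylase sum in both pHes1_EPC libraries, and Slc17a6 supplies 25.6% of the transporter sum in P1 pHes1_EPCs, where that sum is 1.92 FPKM.

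Slc32a1 encodes the vesicular transporter of both GABA and glycine (chr2:158436494-158441483, plus strand, 2 exons). It had an FPKM of 20.4 (18.1 to 20.8) in P1 pHes1_ENCs and 0.454 (0.299 to 0.598) in P1 pHes1_EPCs, then 2.84 (2.31 to 3.35) and 0.636 (0.439 to 0.824) at P4. As for Gad1, P1 pHes1_ENCs stood above all other libraries. Its log2 difference of -3.88 at P1 was the largest between the fractions among the 9 genes, at an FPKM ratio of 44.9 (30.3 to 69.5). At P4 the difference was -1.23, and the ratio 4.46 (2.81 to 7.62). Between the ages, Slc32a1 fell by 2.48 in pHes1_ENCs, and it differed by 0.17 in pHes1_EPCs, where the intervals overlapped. None of its 2762 words of 36 bases occurs elsewhere in mm9. However, 24.8% of its annotated exon bases lie opposite exons of the antisense gene Gm14205, and in libraries without strand the reads of such partners cannot be told apart.

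The summed markers of amacrine cells were highest in P1 pHes1_ENCs, as were the 3 GABA genes. The low markers Neurod6 and Ebf1 were instead highest in P4 pHes1_ENCs, at 0.344 and 1.65 FPKM. At P4 the marker sum was lower in pHes1_EPCs, as were Gad1 by its intervals and Slc32a1, but not Gad2, which stood higher there. Of the markers, Barhl2 and Dlx2 also stood higher in P4 pHes1_EPCs, at 2.65 and 1.49 FPKM against 2.24 and 0.727. The 13 amacrine markers summed to 389 FPKM in P1 pHes1_ENCs, 17.5 in P1 pHes1_EPCs, 70.8 in P4 pHes1_ENCs and 26 in P4 pHes1_EPCs, and none was at 0. Of the 13, 11 were lower in pHes1_EPCs at P1, 8 at P4, and 9 were lower at P4 than at P1 in pHes1_ENCs. The P4 sum in pHes1_ENCs was 0.182 of that at P1, where the level of Slc32a1 fell 7.19-fold (5.41 to 8.99), that of Gad2 8.98-fold (7.55 to 10.4) and that of Gad1 13.8-fold (10.2 to 18.5). Horizontal cells use GABA too, and their 6 markers summed to 87.4, 25.7, 17.9 and 20.0 FPKM in the same order. Of the 6, 3 were lower in pHes1_EPCs at P1, 2 at P4, and 1 was lower with age in pHes1_ENCs. That sum rests largely on Tcfap2a, which is also an amacrine marker and had 59.9 FPKM in P1 pHes1_ENCs, and on Prox1, which had 23.2 FPKM in P1 pHes1_EPCs. The part of either cell type in the levels of the GABA genes was not tested.

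Slc6a9 encodes GlyT1, the glycine transporter of the plasma membrane, which in the retina is known from glycinergic amacrine cells (chr4:117507863-117541910, plus strand, 14 exons). It stood at 19.1 FPKM (17.9 to 20.2) in P1 pHes1_ENCs and at 1.72 (1.43 to 2.01) in P1 pHes1_EPCs. In the P4 libraries it stood at 62.6 (60.6 to 65.3) and 10.1 (9.32 to 10.9). Both fractions were higher at P4, and pHes1_ENCs were the higher fraction at both ages. The fractions differed by -2.88 on the log2 scale at P1, and by -2.52 at P4, with FPKM ratios of 11.1 (8.89 to 14.2) and 6.19 (5.56 to 7.01). From P1 to P4 it rose by 1.66 in pHes1_ENCs, a ratio of 3.28 (3.0 to 3.65), and by 2.03 in pHes1_EPCs, a ratio of 5.90 (4.63 to 7.64). Of all its annotated exon bases, 27.8% lie opposite exons of Ccdc24, which had 7.71 FPKM in P1 pHes1_ENCs, 1.55 in P1 pHes1_EPCs, 18.2 in P4 pHes1_ENCs and 4.71 in P4 pHes1_EPCs. The levels of Ccdc24 thus stood in the same order as those of Slc6a9, and reads from the shared stretches cannot be told apart without strand. The direction of Slc6a9 with age is the opposite of that of Slc32a1 and of the summed amacrine markers in pHes1_ENCs. Slc6a5, which encodes GlyT2, the neuronal glycine transporter, was low throughout, at 1.62 FPKM in P1 pHes1_ENCs, 0.242 in P4 pHes1_ENCs and listed at 0 in both pHes1_EPC libraries.

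Slc17a7 encodes VGLUT1, the vesicular glutamate transporter of photoreceptors and bipolar cells (chr7:52419291-52431509, plus strand, 12 exons). At P1 its FPKM was 12.1 (10.6 to 13.0) in pHes1_ENCs and 1.36 (1.06 to 1.66) in pHes1_EPCs. At P4 it was 85.5 in pHes1_ENCs and 13.8 (12.2 to 14.4) in pHes1_EPCs. The value of 85.5 lies outside its own Cufflinks interval of 77.9 to 83.9, the only one of the 36 levels of the 9 genes to do so, and ranges that involve it rest on that interval. P4 pHes1_ENCs were the highest library, and Slc17a7 then ranked 573 among the 12940 genes by level, from 5846 at P1. In pHes1_EPCs its rank was 11294 at P1 and 5665 at P4.

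Slc17a7 was lower in pHes1_EPCs by nearly the same log2 difference at both ages, -2.46 at P1 and -2.54 at P4, with FPKM ratios of 8.83 (6.40 to 12.3) and 6.19 (5.40 to 6.86). It rose by 2.73 in pHes1_ENCs, a ratio of 7.09 (5.98 to 7.90), and by 2.65 in pHes1_EPCs, a ratio of 10.1 (7.36 to 13.6). These were the largest rises between the ages among the 9 genes in either fraction. None of the 2904 words of 36 bases of Slc17a7, and none of the 3444 of Slc6a9, occurs elsewhere in mm9.

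Rod markers went in the same direction as Slc17a7 and Slc6a9 between the fractions and between the ages, but their sum changed by other amounts. The 8 rod markers summed to 545 FPKM in P1 pHes1_ENCs, 36.4 in P1 pHes1_EPCs, 3990 in P4 pHes1_ENCs and 749 in P4 pHes1_EPCs, and none was at 0. In pHes1_EPCs 7 of the 8 were lower at P1 and 8 at P4, and all 8 were higher at P4 than at P1 in both fractions. The rod sum rose 7.32-fold with age in pHes1_ENCs and 20.6-fold in pHes1_EPCs. Slc17a7 rose 7.09-fold and 10.1-fold, and Slc6a9 rose 3.28-fold and 5.90-fold. The 8 cone markers summed to 291, 35.4, 795 and 254 FPKM in the same order of libraries. With age the cone sum rose 2.73-fold in pHes1_ENCs and 7.17-fold in pHes1_EPCs. At P1, 5 of the 8 were lower in pHes1_EPCs, and at P4, 4 were, while 2 were higher with age in pHes1_ENCs. Gngt2 alone supplied 202 of the 291 FPKM and 692 of the 795. The 8 bipolar markers summed to 20.3, 6.35, 33.3 and 14 FPKM, and Lhx4 alone supplied 14.9 of the 20.3 and 20.4 of the 33.3. Of these 8, 2 were lower in pHes1_EPCs at P1, and 2 were higher with age in pHes1_ENCs. At P4, 1 was lower in pHes1_EPCs (Lhx4, -1.92) and 1 was higher (Trpm1, 1.49). The part of photoreceptors in the levels of Slc17a7 and Slc6a9, in the sorted EGFP-positive cells or elsewhere, was not tested.

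**Figure D4:**
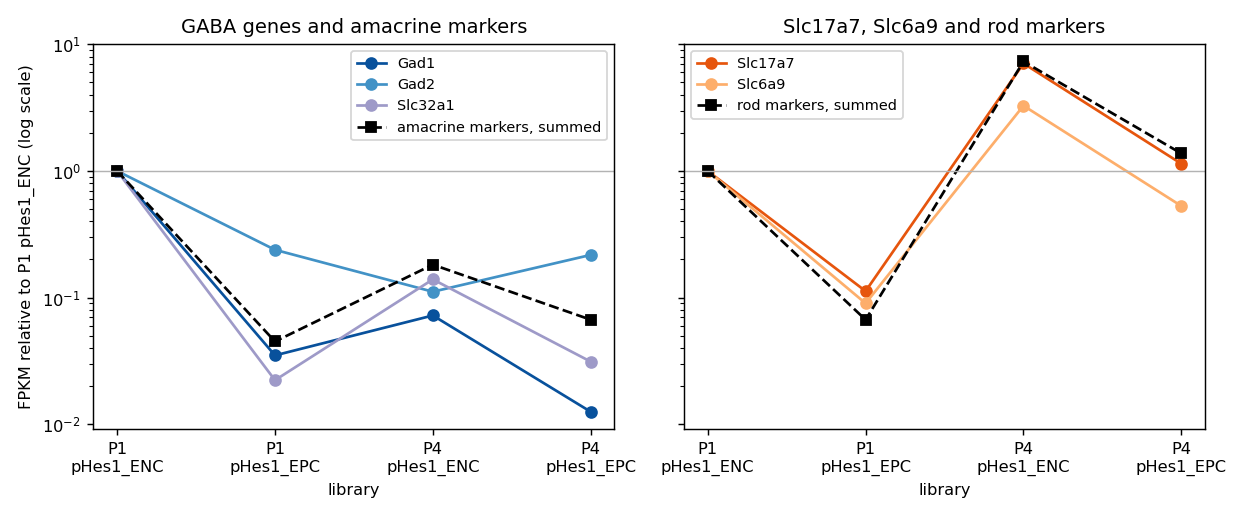
FPKM relative to P1 pHes1_ENCs (log scale) in the 4 libraries for the GABA genes with the summed amacrine markers (left) and for Slc17a7 and Slc6a9 with the summed rod markers (right). Each point is 1 library and lines join the libraries only to guide the eye. In P4 pHes1_ENCs the amacrine sum is at 0.182 and the rod sum at 7.32 of the P1 level.

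The other vesicular glutamate transporters were low. Slc17a6 encodes VGLUT2, the transporter of ganglion cells (chr7:58877200-58926496, plus strand, 12 exons). P1 pHes1_ENCs had 0.654 FPKM (0.505 to 0.80) and P1 pHes1_EPCs 0.491 (0.362 to 0.618). At P4 the levels were 0.181 (0.10 to 0.255) in pHes1_ENCs and 0.0748 (0.0267 to 0.116) in pHes1_EPCs. Intervals of the fractions overlapped at both ages, so a difference between them was not detectable at this depth. Those of the ages did not overlap, and the level at P1 was 3.61 times that at P4 in pHes1_ENCs (1.98 to 8.0) and 6.56 times in pHes1_EPCs (3.12 to 23.1), although on the log2(FPKM + 1) scale the differences of -0.49 and -0.47 are within the 2-fold limit. The 11 ganglion cell markers summed to 70.8 FPKM in P1 pHes1_ENCs, 31.6 in P1 pHes1_EPCs, 20.3 in P4 pHes1_ENCs and 13.0 in P4 pHes1_EPCs. Gap43 alone supplied 27.7 of the 70.8 FPKM. Of the 11, 3 were lower in pHes1_EPCs at P1 and 1 at P4, with a median log2 difference of -0.33 at P1. With age, 7 were lower in pHes1_ENCs and 3 in pHes1_EPCs. The part of ganglion cells in the level of Slc17a6 was not tested.

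Slc17a8 encodes VGLUT3, which is found in a small group of amacrine cells (chr10:89036765-89083994, minus strand, 12 exons). Levels at P1 were 0.153 FPKM (0.0817 to 0.221) in pHes1_ENCs and 0.0605 (0.0171 to 0.103) in pHes1_EPCs. Those at P4 were 0.162 (0.0882 to 0.229) and 0.112 (0.0519 to 0.173). The intervals of all 4 libraries overlapped. Of its 4421 words of 36 bases, 187 (4.23%) occur elsewhere, 151 of them at more than 50 places. Among the 3 transporters, Slc17a7 supplied 93.7% of the summed FPKM in P1 pHes1_ENCs, 71.2% in P1 pHes1_EPCs, 99.6% in P4 pHes1_ENCs and 98.7% in P4 pHes1_EPCs. Slc17a6 supplied 5.08%, 25.6%, 0.211% and 0.534% in the same order.

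Chat and Th, the enzymes that mark acetylcholine and dopamine neurons, were close to the limit of detection. Chat encodes choline acetyltransferase, the enzyme of starburst amacrine cells (chr14:33221389-33279095, minus strand, 16 exons). It had an FPKM of 0.251 (0.142 to 0.350) in P1 pHes1_ENCs and 0.0439 (0 to 0.0814) in P1 pHes1_EPCs, and it was listed at 0 in both P4 libraries. Th encodes tyrosine hydroxylase, the rate-limiting enzyme of dopamine synthesis (chr7:150078681-150085871, minus strand, 12 exons). P1 pHes1_ENCs had 0.304 FPKM of it (0.145 to 0.456) and P1 pHes1_EPCs 0.0245 (0 to 0.0651). P4 pHes1_ENCs had 0.177 (0.0671 to 0.291) and P4 pHes1_EPCs 0.0248 (0 to 0.0657). For both genes pHes1_ENCs had the higher level wherever the gene was above 0, and the intervals of the fractions did not overlap, but no level reached 1 FPKM. Slc18a3, the vesicular acetylcholine transporter, was at 0.905 FPKM in P1 pHes1_ENCs, 0.241 in P1 pHes1_EPCs, and 0.0178 and 0.0174 at P4. Slc5a7, the choline transporter of the same neurons, stood the other way, at 0.110 FPKM in P1 pHes1_ENCs, 0.260 in P1 pHes1_EPCs, 0 in P4 pHes1_ENCs and 0.124 in P4 pHes1_EPCs. Of the 6 starburst markers, 2 (Sox2 and Megf10, which are also known from glia) were higher in pHes1_EPCs at both ages. Another 1, Isl1, was lower in pHes1_EPCs at P1, with a difference of -1.17, and differed by -0.38 at P4.

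The order of the genes by level changed with age and fraction. In P1 pHes1_ENCs Gad2 was highest, followed by Slc32a1 and Slc6a9, whose intervals overlapped, and then by Gad1 and Slc17a7. In P1 pHes1_EPCs Gad2 was also highest, followed by Slc6a9 and Slc17a7, whose intervals overlapped, and Gad1, Slc17a6 and Slc32a1 came next with overlapping neighbours. At P4 Slc17a7 and Slc6a9 led in both fractions. They were followed by Slc32a1 and Gad2, with overlapping intervals, and then Gad1 in pHes1_ENCs, and by Gad2, Slc32a1 and Gad1 in pHes1_EPCs. Among the 12940 genes, Gad2 ranked 2743 in P1 pHes1_ENCs, 8506 in P1 pHes1_EPCs, 9830 in P4 pHes1_ENCs and 8880 in P4 pHes1_EPCs.

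The profiles of the genes over the 4 libraries were compared by the Euclidean distance between their log2(FPKM + 1) values after centring each gene on its mean, where a smaller distance means a more similar profile. Of the 5 callable genes, Gad1 and Slc32a1 were closest, at 0.67, followed by Slc6a9 and Slc17a7 at 0.89. Gad2 was 1.60 from Gad1 and 2.01 from Slc32a1. The farthest pair was Gad2 and Slc17a7, at 4.77.

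Among 10457 other genes with at least 5 FPKM in a library, the 3 closest to Slc32a1 were Ptf1a (0.15), Elavl3 (0.17) and Dlg2 (0.22). Ptf1a encodes a transcription factor needed for amacrine and horizontal cells, and its FPKM was 25.4 in P1 pHes1_ENCs, 0.788 in P1 pHes1_EPCs, 4.33 in P4 pHes1_ENCs and 1.00 in P4 pHes1_EPCs. Elavl3 encodes a neuronal RNA-binding protein, and Dlg2 a synaptic scaffold. The closest to Gad1 were Ipw (0.16), Krt73 (0.22) and Syt6 (0.24), and to Gad2 Epb4.1l4a (0.13), Kif5c (0.26) and Syt5 (0.33). Syt5 and Syt6 encode synaptotagmins, and Kif5c a neuronal kinesin. The closest to Slc17a7 were Nxnl1 (0.14), Reep6 (0.21) and Rd3 (0.23), which are all genes expressed by photoreceptors. The closest to Slc6a9 were Slc1a7 (0.14), which encodes a glutamate transporter of photoreceptors and bipolar cells, Tmem215 (0.22) and Kif19a (0.22). These distances rest on 4 libraries and are a description.

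The rest of the transmitter pathways were read from a list of 41 other genes for synthesis, transport and breakdown. Of the 41, 28 reached 1 FPKM in a library and could be called. Of these 28, 5 were higher and 6 lower in pHes1_EPCs at P1, against 10.3% and 11.5% of the background. At P4, 8 were higher and 5 lower, against 16.6% and 9.15%. With age, 3 were higher and 7 lower in pHes1_ENCs, against 4.67% and 10.0%. In pHes1_EPCs 4 were higher and 1 lower with age, against 7.04% and 4.33%. The median differences of all 41 between the fractions were -0.02 at P1 and 0.16 at P4. Between the ages they were -0.11 in pHes1_ENCs and 0.06 in pHes1_EPCs. These medians include the genes that could not be called.

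The list also holds genes that take up and break down GABA. Slc6a11 encodes the GABA transporter GAT3, and Abat encodes GABA transaminase. Slc6a11 had an FPKM of 20.3 in P1 pHes1_ENCs, 22.8 in P1 pHes1_EPCs, 5.41 in P4 pHes1_ENCs and 37.0 in P4 pHes1_EPCs. In the same order, Abat had 30.9, 23.6, 5.49 and 29.6 FPKM. Both were within the 2-fold limit between the fractions at P1, with log2 differences of 0.16 and -0.37, and higher in pHes1_EPCs at P4, by 2.57 and 2.24. In pHes1_ENCs they were lower at P4 than at P1, with differences of -1.73 and -2.30, as were the genes of synthesis. In pHes1_EPCs the differences between the ages were 0.68 and 0.31. Aldh5a1, which acts after Abat, was higher in pHes1_EPCs at P4 by 1.09, just past the limit. With it, 3 of the 5 other GABA genes on the list were higher there, against 16.6% of the background. None was lower, against 9.15%. The transporters Slc6a12 and Slc6a13 reached at most 1.04 and 1.43 FPKM, and Slc6a12 was lower in pHes1_EPCs at P1, at 1.04 FPKM in pHes1_ENCs and listed at 0 in pHes1_EPCs.

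Of the 13 other glutamate genes, 3 were higher in pHes1_EPCs at both ages. In the background, 10.3% of genes were higher at P1 and 16.6% at P4. The 3 genes were Slc1a3, the glial glutamate transporter GLAST, Glul, the glutamine synthetase of Müller glia, and Slc38a3, a glutamine transporter. The log2 differences of Slc1a3 were 2.34 at P1 and 3.85 at P4, those of Glul 1.38 and 2.47, and those of Slc38a3 1.66 and 1.65. The 4 further uptake transporters named here went the other way at P1. Slc1a2 was lower in pHes1_EPCs, with differences of -3.70 at P1 and -2.35 at P4, as were Slc1a7, with -2.88 and -2.47, and Slc1a1, with -2.78 and -2.19. Slc1a6 had a difference of -3.80 at P1 and of -0.48 at P4, and in pHes1_ENCs its FPKM fell from 23.3 at P1 to 1.54 at P4. Slc1a7 and Slc1a1 rose with age in both fractions, by 1.5 and 1.38 in pHes1_ENCs and by 1.92 and 1.97 in pHes1_EPCs.

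Of the 4 other glycine genes, Shmt1, which encodes an enzyme that interconverts serine and glycine, was higher in pHes1_EPCs by 2.09 at P1 and 1.59 at P4. Slc6a5, described above, was lower at P1, with a difference of -1.39. Gldc, which encodes the glycine decarboxylase of the glycine cleavage system, was higher by 1.06 at P1, and its difference at P4 was 0.79. Of the 4 other acetylcholine genes, Ache, the esterase that breaks acetylcholine down, had a difference of -0.97 at P1 and was lower at P4, at -1.29. The choline transporter Slc44a1 had a difference of 0.74 at P1 and was lower at P4, at -1.11. Of the 11 other dopamine genes on the list, the breakdown enzyme Maoa was higher in pHes1_EPCs at P4, by 1.85, and 0 were called between the fractions at P1. Ddc, which makes dopamine from the product of Th, reached at most 0.439 FPKM. The 4 genes for serotonin and histamine summed to no more than 1.5 FPKM in any library, and 0 of them were called.

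**Figure D5:**
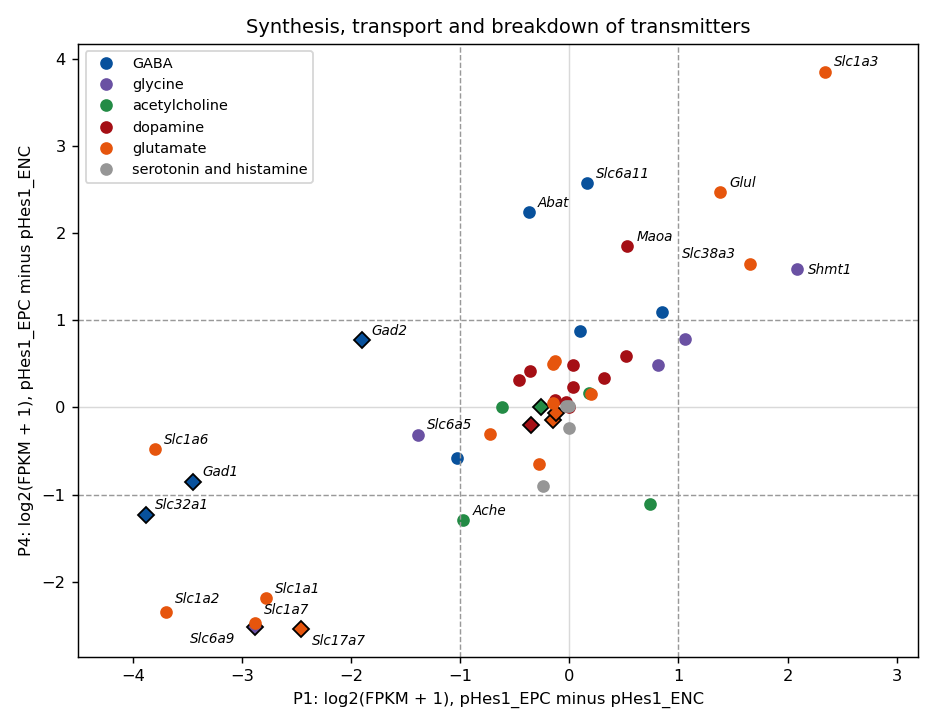
Difference of log2(FPKM + 1) between pHes1_EPCs and pHes1_ENCs at P1 (horizontal) and at P4 (vertical) for the 9 transmitter genes (diamonds with black edges) and the 41 other genes of the list (circles), coloured by transmitter. Dashed lines mark the 2-fold limit. Slc32a1, Slc6a9 and Slc17a7 lie at the lower left, the GABA uptake and breakdown genes Slc6a11 and Abat at the upper centre, and Slc1a3 and Glul at the upper right.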

How the data were processed

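The authors sorted EGFP-positive and EGFP-negative retinal cells at P1 and P4, extracted total RNA and made 1 non-stranded library for each group. Single-end reads of 36 bases were aligned to NCBI37/mm9 with TopHat 2.0.8b, allowing up to 50 positions for a read, and the authors deposited FPKM for each gene from Cufflinks 2.1.1 with default options, with a 95% interval. The submitters' processing notes also name bcl2fastq 1.8.4. FPKM is scaled to transcript length and library size, and read counts and the depth of each library were not used here.

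From these tables of 23021 lines and 22558 symbols, 797 small RNA lines were left out. Where a symbol had several lines, its highest line stood for it, so that 21827 genes were analysed. Differences of log2(FPKM + 1) above 1 in size were called, and ranges of ratios come from the interval bounds. Genes were named if they are 1 of the 9 transmitter genes, belong to the list of transmitter pathways, or are 1 of the 3 nearest profiles. Some genes of these pathways are not reported here. Ptf1a and other markers stand only beside a result. The genes, lists and comparisons were chosen with earlier results of these data known. Sequences and transcripts were read from mm9 with its GENCODE annotation. The alternatives were other pseudocounts, a higher FPKM filter, 3 other scalings, intervals that do not overlap, and summed lines. The 2-fold rule was tested on simulated data with counting noise only. That simulation held no genes at low FPKM and no spread between animals or sorts, so it does not speak for either. Python 3.11.15, numpy 2.4.6, pandas 2.3.3 and matplotlib 3.10.9 were used.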

Additional observations from a re-analysis of the deposited data

Results flagged for a closer look

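The difference of Gad2 between the fractions pointed in opposite directions at the 2 ages. It was -1.90 (log2, pHes1_EPC minus pHes1_ENC) at P1 and 0.77 at P4. The difference of Slc32a1 between the ages also differed in direction between the fractions. It was -2.48 (log2, P4 minus P1) in pHes1_ENCs and 0.17 in pHes1_EPCs, where the intervals of both ages overlapped. Each value compares 1 library with 1 other, so neither difference was tested.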

How the results depend on the processing

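With 1 library in each group, no library could be left out and no spread between animals or sorts was measured, and low genes near 0.1 FPKM are limited by depth. No paired analysis was possible because each group has 1 library and no test was made. No called difference of a transmitter gene changed its direction under any alternative, but only the 3 other scalings could have reversed one. Among 64 counts of called transmitter genes, 56 stayed within 1.5 times their value. The 8 counts from summed lines could not change, since each of the 9 genes has 1 line. Of the differences of single genes, 156 stayed within the width taken from their intervals and 73 moved beyond it. Among the 156, 36 from summed lines and 16 under the higher FPKM filter repeat the main value by construction. Gad1 at P4 (-0.85) passed the 2-fold limit with FPKM rescaled to the same sum (-1.65) and with quantile normalization (-1.09). It also did so with a pseudocount of 0.1 (-2.06) and without one (-2.52). With a pseudocount of 0.1, the genes lower in pHes1_EPCs at P4 numbered 5 instead of 3, those lower at P4 than at P1 in pHes1_ENCs 5 instead of 3, and those lower at P4 in pHes1_EPCs 2 instead of 0. Without a pseudocount these counts were 6, 5 and 3, and 8 instead of 5 genes were lower in pHes1_EPCs at P1. With FPKM rescaled to the same sum, 1 gene (Slc17a6, -1.15) was lower at P4 than at P1 in pHes1_EPCs. A smaller pseudocount gives low genes more weight by construction, and rescaling to the same sum does too, since it enlarges every FPKM. The difference of Gad2 at P4 was 0.46 after quantile normalization, against 0.77. Scaling also moved the median of all 12940 genes between the fractions at P4, from 0.15 to -0.10 (same sum), -0.02 (median of ratios) and -0.03 (quantile normalization), and the share of calls that were higher in pHes1_EPCs at P4 from 64.5% to 48.1%, 53.1% and 49.9%. Between the ages in pHes1_EPCs the median went from 0.17 to -0.11, 0.03 and 0.02, and the share of higher calls from 61.9% to 33.7%, 44.1% and 44.3%. In pHes1_ENCs the median went from -0.01 to -0.13, 0.01 and 0.02, and the share of higher calls from 31.8% to 23.7%, 32.6% and 42.6%.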
